A study of Mus musculus with 4 samples.

Results

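The Hox genes are homeobox transcription factors lying in 4 clusters, named Hoxa, Hoxb, Hoxc and Hoxd. The members were taken by symbol: every gene called Hoxa, Hoxb, Hoxc or Hoxd followed by digits alone, which gave 39 genes of the 27040 listed for all 4 libraries. Of these, 11 were Hoxa genes, 10 Hoxb, 9 Hoxc and 9 Hoxd. The rule used names and no measured value.

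The study measured RNA in single cells of the mouse Achilles tendon by droplet sequencing with 10x Genomics Single Cell 3′ v3 chemistry. There were 4 groups with 1 library each, and the cells of 5 tendons were pooled per group. The Prox1 eGFP line gave 3 of them: an untreated group at day 0, uninjured according to the series, and groups at days 7 and 21 after an injury that the labels abbreviate as B/T. The treatment protocol field reads B/T for day 0 as well, although the treatment of that sample is given as none. The Vegfc CRE line gave the fourth, at day 7 after B/T. Prox1 is the transcription factor that marks lymphatic endothelium, and Vegfc encodes a growth factor for lymphatic vessels. The labels used here give no age, sex or strain, and do not say which promoter or allele drives the eGFP or the CRE or whether a CRE-negative control existed. The protocol text on all 4 libraries describes digestion with collagenase and dispase and a flow cytometry sort for Prox1-expressing cells, whereas the cell type label on all 4 reads unsorted. The line and the day differ together between Vegfc CRE day 7 and Prox1 eGFP day 21. With 1 library per group no test between conditions was possible, and every interval below is a 95% interval for counting error only, without animal-to-animal spread.

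Each Hox cluster lies on its own chromosome with its genes in paralog order, so that a gene number (1 to 13) gives both a family and a place along the cluster. In the embryo, low-numbered genes are switched on early and towards the head, and high-numbered genes late, towards the tail and the tips of the limbs. Adult mesenchymal and vascular cells are known to keep part of this pattern, often called a positional code. HOX proteins bind DNA with partner homeodomain proteins of the PBX and MEIS families.

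In the mouse genome build GRCm38 with the GENCODE M21 annotation, the 11 Hoxa genes lie on the minus strand of chromosome 6. On the plus strand, the 10 Hoxb genes span chr11:96194316-96368256, the 9 Hoxc genes chr15:102921103-103036852 and the 9 Hoxd genes chr2:74668310-74765142. Promoter sequences were taken from RefSeq (GRCm38.p6), as the 250 bases before an annotated gene start. They were found for 22 of the 39 members, as 24 promoters. The 5 printed here belong to members that separated the cell classes in the values below: Hoxd8 and Hoxd10 (endothelial), Hoxd11 (stromal, most in tenocyte-like cells), Hoxa10 (stromal and muscle) and Hoxb8 (endothelial). None of these 5 stretches overlaps an annotated exon. The Hoxd11 and Hoxa10 stretches lie before starts inside the GENCODE span of their gene. Each of these members also had a stretch at its outer start, which is not printed. Capitals mark matches, on either strand, to the letters TGATNNAT, a paired site of PBX and HOX proteins, or TTTATG, a site of the CDX factors that act on Hox clusters in the embryo. All are written 5′ to 3′ on the strand of the gene.
Hoxd8, chr2:74704365-74704614, plus strand: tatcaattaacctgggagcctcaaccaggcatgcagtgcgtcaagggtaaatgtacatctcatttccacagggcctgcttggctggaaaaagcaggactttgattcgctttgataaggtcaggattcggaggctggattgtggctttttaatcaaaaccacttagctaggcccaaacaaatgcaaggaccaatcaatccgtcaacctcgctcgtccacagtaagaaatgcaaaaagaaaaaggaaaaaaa
Hoxd10, chr2:74691641-74691890, plus strand: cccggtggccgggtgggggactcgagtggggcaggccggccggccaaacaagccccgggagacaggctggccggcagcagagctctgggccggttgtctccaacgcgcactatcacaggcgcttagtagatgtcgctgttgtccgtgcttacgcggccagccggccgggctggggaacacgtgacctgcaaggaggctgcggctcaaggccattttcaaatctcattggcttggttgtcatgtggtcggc
Hoxd11, chr2:74682073-74682322, plus strand: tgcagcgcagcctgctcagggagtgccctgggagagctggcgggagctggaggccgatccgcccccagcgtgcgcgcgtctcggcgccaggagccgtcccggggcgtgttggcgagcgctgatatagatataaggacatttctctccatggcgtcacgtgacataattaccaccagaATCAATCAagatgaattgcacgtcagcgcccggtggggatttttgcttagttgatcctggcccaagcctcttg
Hoxa10, chr6:52234940-52235189, minus strand: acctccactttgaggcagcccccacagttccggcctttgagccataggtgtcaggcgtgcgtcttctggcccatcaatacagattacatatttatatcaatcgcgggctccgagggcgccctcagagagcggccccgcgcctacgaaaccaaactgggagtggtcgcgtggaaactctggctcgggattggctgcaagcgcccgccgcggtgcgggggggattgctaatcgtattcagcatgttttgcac
Hoxb8, chr11:96281655-96281904, plus strand: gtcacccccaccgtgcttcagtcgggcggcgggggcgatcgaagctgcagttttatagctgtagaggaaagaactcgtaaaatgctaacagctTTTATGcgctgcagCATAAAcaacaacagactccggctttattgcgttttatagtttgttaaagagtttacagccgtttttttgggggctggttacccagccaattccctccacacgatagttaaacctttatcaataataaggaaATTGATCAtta
Their base composition differed: guanine and cytosine made up 44.4% of the Hoxd8 and the Hoxb8 stretch, 60.4% of Hoxd11, 59.2% of Hoxa10 and 65.6% of Hoxd10. TGATNNAT was present in the promoters of 4 members, against 7.68% of all 32851 promoters of this length, and TTTATG in 5 members, against 10.8%. The printed Hoxb8 stretch held both motifs, and the Hoxd8, Hoxd10 and Hoxa10 stretches held neither. These are matches of letters, not measured binding.

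After filtering, 690 cells of Prox1 eGFP day 0 were kept, 4871 of day 7, 6303 of day 21, and 6979 of Vegfc CRE, with median counts of 7064.5, 8471, 7513 and 8507 UMIs (unique molecular identifiers, each standing for a captured RNA molecule) per cell. Pairs of libraries shared 1 to 10 cell barcodes. Cells were clustered without the Hox genes, and the 28 clusters were named from lists of marker genes. The deposited files held 271, 25657, 22248 and 15876 Hox UMIs over all barcodes in that order. The day 0 library was mostly immune-like (650 of 690 cells) with 2 stromal-like, 10 endothelial-like and 26 mural-like cells, so no uninjured level of a Hox gene could be given for those classes. Stromal-like cells numbered 408 at Prox1 eGFP day 21 and 1894 at Vegfc CRE day 7, and 16 at Prox1 eGFP day 7. Muscle progenitor-like cells, which carry satellite cell markers, numbered 3642, 3399 and 30 at Prox1 eGFP days 7 and 21 and Vegfc CRE day 7. Lymphatic endothelial-like cells (991 and 1915) came from the Prox1 eGFP days 7 and 21, and blood endothelial-like cells (33, 121 and 677) from all 3 injured libraries.

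The class names were checked against defining markers, as CPM, the UMIs of a gene for every 1000000 UMIs of the class. Col1a1, the type I collagen chain, was at 17933 and 17317 in the stromal-like class of Prox1 eGFP day 21 and Vegfc CRE day 7, and at 19.5 and 34.7 in the muscle progenitor-like class at days 7 and 21. Pax7, the satellite cell transcription factor, was at 647, 363 and 251 in muscle progenitor-like cells in library order. Lymphatic endothelial-like cells held Pax7 at 13 and 7.24, and stromal-like cells at 8.89 and 0. Cdh5, the endothelial cadherin, was at 1001, 802 and 1014 in blood and 493 and 370 in lymphatic endothelial-like cells. Prox1 stood at 1755 and 1620 in lymphatic endothelial-like cells and also reached 1222 and 758 in muscle progenitor-like cells of Prox1 eGFP days 7 and 21. The blood endothelial-like class held Prox1 at 781 at Prox1 eGFP day 7, 157 at day 21 and 3.13 in Vegfc CRE. In lymphatic endothelial-like cells all 12 muscle progenitor markers had a UMI, with a summed level of 206 at day 7 and 155 at day 21 against 7059 and 5480 in muscle progenitor-like cells. In blood endothelial-like cells that list summed to 152, 363 and 98.6 and the 12 stromal markers to 338, 2312 and 649, against 66481 and 58513 in stromal-like cells. The part of such RNA in the low Hox values below was not tested.

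The sum of the 39 Hox genes was highest in blood and lymphatic endothelial-like cells and lowest in immune-like cells. In blood endothelial-like cells it came to 599.8 (541 to 663), 600.3 (558 to 645) and 449 (434 to 464) CPM, in the order Prox1 eGFP day 7, then day 21, then Vegfc CRE, which is kept below. Lymphatic endothelial-like cells held 498 (489 to 508) and 476 (466 to 486) at Prox1 eGFP days 7 and 21. Muscle progenitor-like cells held 413 (406 to 420), 351 (343 to 358) and 286 (212 to 378) in library order. Stromal-like cells held 243 (233 to 254) at Prox1 eGFP day 21 and 197 (193 to 201) in Vegfc CRE, and mural-like cells, which wrap small vessels, 330.4 (293 to 371) and 255 (238 to 272). At Prox1 eGFP day 21 and in Vegfc CRE the endothelial intervals lay above the stromal and mural ones, while the muscle progenitor intervals lay above the stromal and overlapped the mural ones. Myeloid-like cells held 8.64, 63.2, 60.7 and 12.5 in the 4 libraries, and lymphoid-like cells 8.3 at day 0 and 11.2 in Vegfc CRE. Removing the highest doublet scores, a choice made after seeing the data, took the myeloid-like sum of Prox1 eGFP day 21 from 60.7 to 16.9, and classing cells by their own markers took the lymphoid-like sum of day 0 to 17.8. The day 0 myeloid-like sum, from 8 UMIs, was between 14.6 and 15.8 under 3 alternatives, and the lymphoid-like sum of Vegfc CRE was 7.34 without the highest doublet scores. UMIs are counted at the 3′ end and are not scaled to gene length, so the same gene is compared between classes here and the sums are a total of molecules.

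The share of cells with at least 1 Hox UMI was set against cell depth by thinning each cell to 2000 UMIs. In stromal-like cells the share was 91.7% unthinned in both libraries and 37.3% (32.6 to 42.2) at Prox1 eGFP day 21 and 31.8% (29.7 to 33.9) in Vegfc CRE after thinning, which left out 6 and 30 shallower cells. In muscle progenitor-like cells it was 90.4% and 83.7% unthinned at days 7 and 21, and 55.1% (53.4 to 56.7) and 47.6% (45.9 to 49.3) thinned. In lymphatic endothelial-like cells it was 98.7% and 94.2% unthinned and 64.1% (61.0 to 67.1) and 61.9% (59.7 to 64.1) thinned. The myeloid-like cells of Vegfc CRE, taken as the comparison class for free RNA there, had a share of 6.94% unthinned at a median of 5082 UMIs and 2.89% (2.31 to 3.57) thinned. Hoxb4 gave 144 of the 281 Hox UMIs of those myeloid-like cells, so their share need not be free RNA alone. All stromal, muscle and endothelial shares lay above it. At Prox1 eGFP days 7 and 21 the 30 and 111 myeloid-like cells had thinned shares of 17.2% and 7.84%, and Pax7 stood at 41.0 and 36.6 CPM in them.

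**Figure D1:**
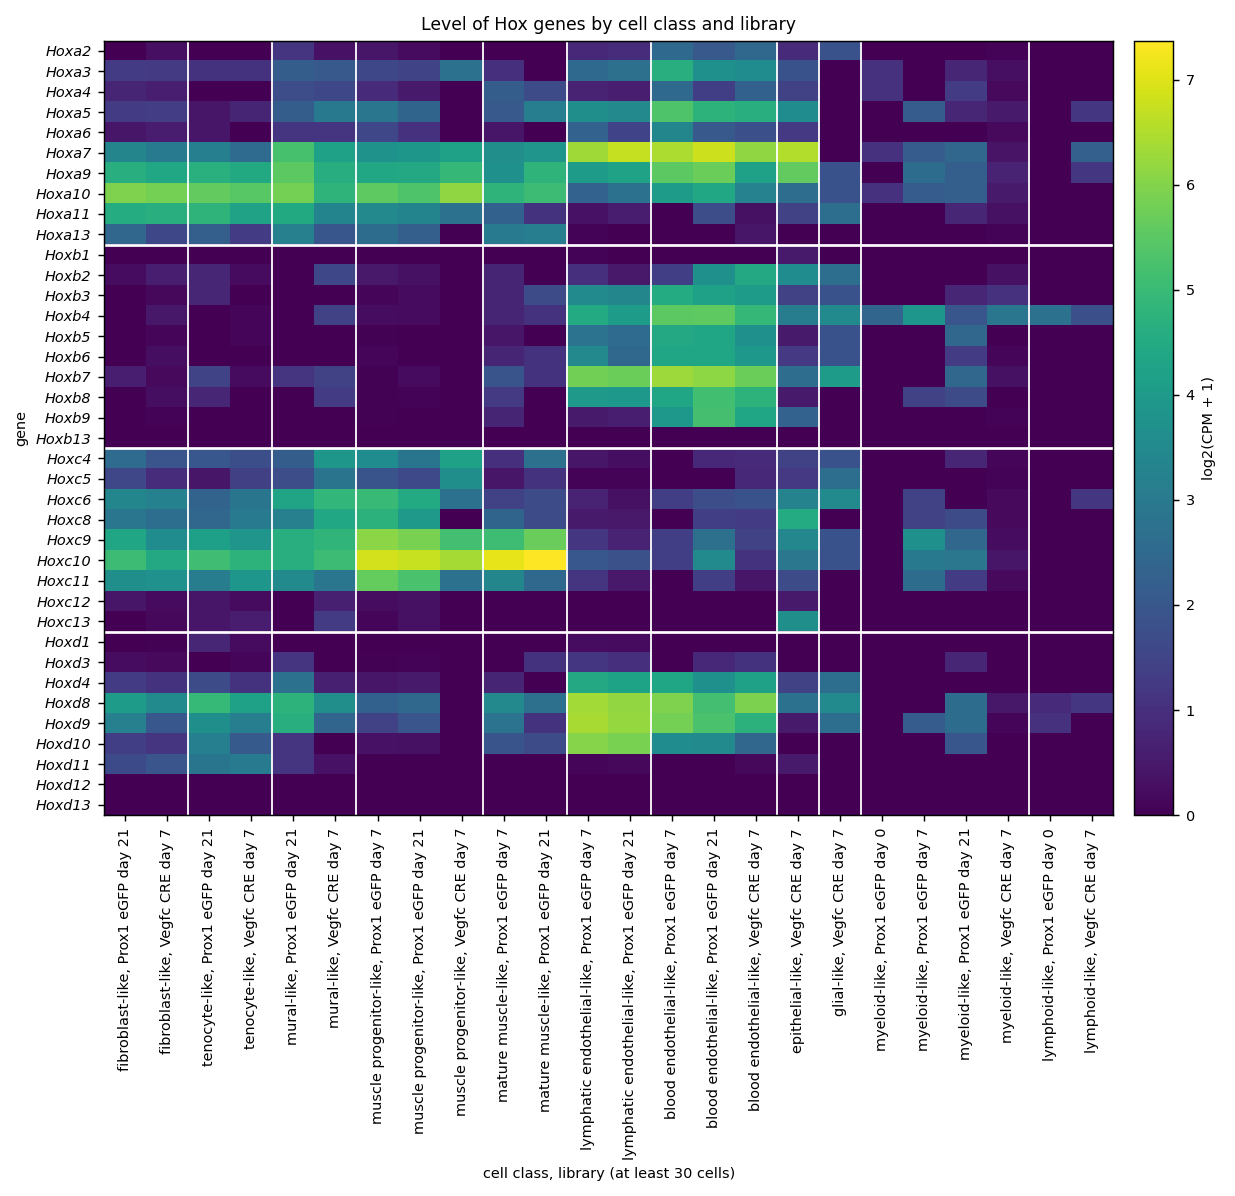
Level of the Hox genes reported here (1 line of the heat map each, grouped by Hox cluster) in every cell class with at least 30 cells in a library (columns, grouped by class), as log2 of CPM plus 1. Hoxc genes are bright in muscle progenitor-like columns and dark in endothelial-like ones, Hoxb genes are bright in endothelial-like columns, and Hoxb13, Hoxd12 and Hoxd13 are at 0 throughout.

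The 4 Hox clusters contributed differently to each class. In stromal-like cells, Hoxa genes gave 49.7% (47.5 to 51.9) of the Hox UMIs at Prox1 eGFP day 21 and 54.9% (53.8 to 55.9) in Vegfc CRE, Hoxc genes 33.6% and 32.5%, Hoxd genes 16.0% and 11.9%, and Hoxb genes 0.740% and 0.726%. In muscle progenitor-like cells, Hoxc genes gave 72.8% (72.1 to 73.6) at day 7 and 70.6% (69.6 to 71.5) at day 21, Hoxa genes 25.4% and 26.9%, Hoxd genes 1.52% and 2.33% and Hoxb genes 0.216% and 0.225%. In the 30 muscle progenitor-like cells of Vegfc CRE, with 49 Hox UMIs, Hoxc genes gave 55.1% (40.2 to 69.3) and Hoxa genes 44.9% (30.7 to 59.8). The Hoxc genes thus gave most of the Hox UMIs of this class in the Prox1 eGFP libraries, while Hoxa led in stroma. In lymphatic endothelial-like cells, Hoxd genes gave 50.4% (49.4 to 51.3) and 46.6% (45.6 to 47.7), Hoxb genes 23.9% and 21.4%, Hoxa genes 24.3% and 31.0%, and Hoxc genes 1.39% and 0.969%. In blood endothelial-like cells, Hoxb genes gave 36.5%, 41.7% and 41.9%, Hoxa genes 38.4%, 38.8% and 32.0%, Hoxd genes 24.3%, 15.8% and 24.1%, and Hoxc genes 0.794%, 3.69% and 2.0%. In blood as in lymphatic cells, the Hox RNA was therefore made of Hoxa, Hoxb and Hoxd with few Hoxc molecules.

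The position along the cluster differed as well. Paralogs 9 to 11, expressed in the lower trunk and limb of the embryo, gave 75.1% (73.1 to 76.9) and 76.8% (75.9 to 77.7) of the Hox UMIs of stromal-like cells, and 74.4% (73.7 to 75.2) and 78.1% (77.2 to 79.0) in muscle progenitor-like cells. In lymphatic endothelial-like cells, paralogs 4 to 8 gave 61.2% (60.3 to 62.2) and 63.0% (62.0 to 64.0), and paralogs 9 to 11 only 35.0% and 33.3%. In blood endothelial-like cells, paralogs 4 to 8 gave 67.2%, 63.1% and 70.1%. The intervals of the endothelial and the mesenchymal or myogenic classes did not overlap in any of these libraries. Hoxb13, Hoxd12 and Hoxd13, genes of the hindmost trunk and the digits, had 0 UMIs in every class. In the stromal-like class of Vegfc CRE that count allows a level of up to 0.0640 CPM for Hoxd13.

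**Figure D2:**
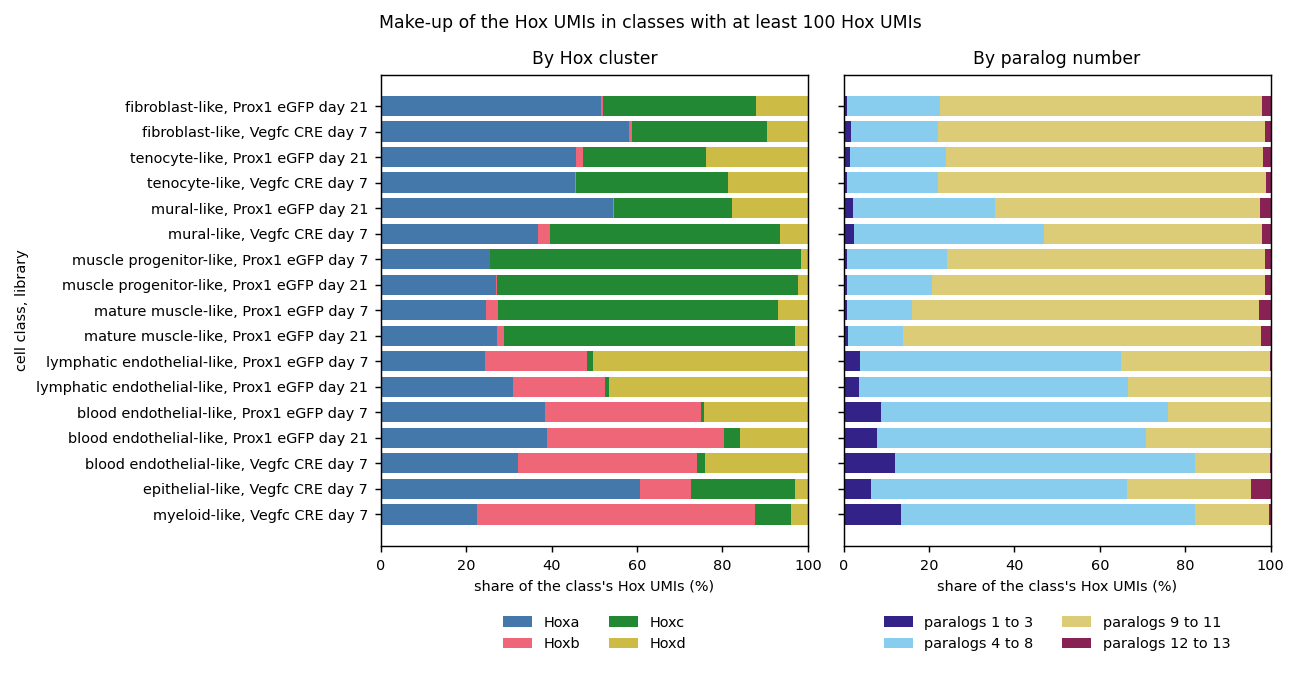
Percent of the Hox UMIs of each class and library given by each Hox cluster (left) and by groups of paralog numbers (right), for classes with at least 100 Hox UMIs, as stacked bars that start at 0 and end at 100%. Hoxc genes make up 72.8% and 70.6% of the bars of muscle progenitor-like cells at days 7 and 21, and Hoxd genes 50.4% and 46.6% of those of lymphatic endothelial-like cells.

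The 12 members with the highest level in the stromal, the whole endothelial or a muscle class are described in full, beginning with Hoxc. Hoxc10, a posterior gene of hindlimb and lumbar identity, was at 115 (111 to 118) CPM in muscle progenitor-like cells at Prox1 eGFP day 7, 106 (102 to 111) at day 21 and 81.7 (44.7 to 137) in Vegfc CRE. In mature muscle-like cells Hoxc10 was at 136 and 164 at days 7 and 21, in stromal-like cells at 32.7 (28.9 to 36.8) at day 21 and 22.1 (20.7 to 23.4) in Vegfc CRE, and in mural-like cells at 23.6 and 32.4. Hoxc10 was at 2.98 and 2.58 in lymphatic endothelial-like cells, at 1.59 (1 UMI), 10.3 (13 UMIs) and 1.13 (9 UMIs) in blood endothelial-like cells, at 6.59 in epithelial-like and 2.65 in glial-like cells of Vegfc CRE. Every muscle library lay above every stromal library, and every stromal library above every endothelial library. Hoxc10 was at 0 in lymphoid-like cells and at 0 to 6.83 (4 UMIs, Prox1 eGFP day 7) in myeloid-like cells. In the whole immune-like class, which also holds other cells, it was at 9.80 (6 UMIs) at Prox1 eGFP day 7 and 15.1 (24 UMIs) at day 21.

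Hoxc9, which patterns the thoracic and lumbar trunk, followed the same order. It was at 66.9 (64.0 to 69.8), 58.4 (55.3 to 61.5) and 35.0 (6 UMIs) in muscle progenitor-like cells, 32.6 and 50.3 in mature muscle-like cells, 18.9 and 11.6 in stromal-like cells and 23.6 and 27.5 in mural-like cells. Its level was 1.26 and 0.644 in lymphatic and 1.59, 5.54 and 1.75 in blood endothelial-like cells, 9.66 in epithelial-like and 2.65 in glial-like cells, 0 to 12 (7 UMIs) in myeloid-like and 0 in lymphoid-like cells. The muscle progenitor-like levels of Hoxc9 exceeded all endothelial-like levels.

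Hoxc11, a hindlimb gene next to Hoxc10, was at 48.2 (45.8 to 50.7), 37.3 (34.9 to 39.8) and 5.84 (1 UMI) in muscle progenitor-like cells but at 9.45 and 4.47 in mature muscle-like cells. It was at 10.5 and 12.5 in stromal-like, 10.6 and 6.37 in mural-like, 1.22 and 0.429 in lymphatic and 0, 1.58 and 0.375 in blood endothelial-like cells. In epithelial-like cells Hoxc11 was at 2.20, in glial-like cells at 0, in myeloid-like cells at 0 to 5.12 (3 UMIs) and in lymphoid-like cells at 0. Unlike Hoxc10 it was thus lower in mature muscle-like than in muscle progenitor-like cells of both Prox1 eGFP libraries.

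Hoxc6, a gene of the forelimb level and thorax in the embryo, was at 31.2 (29.2 to 33.2), 21.6 (19.8 to 23.6) and 5.84 (1 UMI) in muscle progenitor-like cells and at 1.75 and 2.24 in mature muscle-like cells. In stromal-like cells Hoxc6 was at 7.69 and 7.96, and in mural-like cells at 18.9 and 28.4. It was at 0.632 and 0.268 in lymphatic and 1.59, 2.38 and 2.63 in blood endothelial-like cells, 8.78 in epithelial-like, 10.6 (4 UMIs) in glial-like, 0 to 1.71 in myeloid-like and 0 and 1.25 in lymphoid-like cells. Mural-like cells therefore held more Hoxc6 than stromal-like cells in both libraries.

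Hoxa10, a posterior gene that patterns the thigh segment of the hindlimb, was present in stroma and muscle alike. It was at 55.9 (50.9 to 61.2) and 52.3 (50.3 to 54.4) in stromal-like cells, 55.5 and 26.9 in mural-like cells, 45.4 (43.1 to 47.9), 39.2 (36.8 to 41.8) and 70.0 (36.2 to 122) in muscle progenitor-like cells and 26.6 and 32.4 in mature muscle-like cells. Hoxa10 was at 4.02 and 5.69 in lymphatic and 15.9, 20.6 and 8.63 in blood endothelial-like cells, 5.27 in epithelial-like, 2.65 in glial-like, 0.446 to 3.66 in myeloid-like and 0 in lymphoid-like cells. Endothelial-like levels lay below all stromal-like and muscle levels.

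Hoxa9, its neighbour in the cluster, was spread over more classes. It was at 24.4 (21.2 to 28.0) and 20.7 (19.4 to 22.0) in stromal-like, 44.8 and 23.2 in mural-like, 19.8, 20.8 and 29.2 (5 UMIs) in muscle progenitor-like and 11.9 and 26.8 in mature muscle-like cells. Hoxa9 was at 15.6 (14 to 17.3) and 17.8 (15.9 to 19.8) in lymphatic and 44.4 (29.5 to 64.2), 51.5 (39.7 to 65.6) and 17.8 (15 to 20.9) in blood endothelial-like cells. It was at 47.9 in epithelial-like, 2.65 in glial-like, 0 to 5.12 in myeloid-like and 0 and 1.25 in lymphoid-like cells. Outside the immune and glial classes Hoxa9 thus ranged from 11.9 to 51.5, and the blood endothelial-like values alone covered 17.8 to 51.5.

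Hoxa7, a trunk gene of the middle of the cluster, was an endothelial and epithelial member. It was at 79.2 (75.6 to 83.0) and 105 (100 to 110) in lymphatic endothelial-like cells, 87.3 (65.8 to 114), 111 (93.3 to 131) and 69.5 (63.8 to 75.5) in blood endothelial-like cells and 90.5 in epithelial-like cells. Stromal-like cells held Hoxa7 at 8.89 (6.98 to 11.2) and 6.61 (5.90 to 7.39), mural-like cells at 36.6 and 17.7, muscle progenitor-like cells at 12.8, 13.8 and 17.5 (3 UMIs), and mature muscle-like cells at 11.6 and 13.4. It was at 0 in glial-like, 0.312 to 4.39 in myeloid-like and 0 and 3.74 in lymphoid-like cells. All 5 endothelial-like levels of Hoxa7 lay above all stromal-like and muscle levels.

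Among the Hoxd genes, Hoxd8 was at 80.1 (76.4 to 83.9) and 72.0 (68.2 to 76.0) CPM in lymphatic endothelial-like cells and 60.3 (42.7 to 82.8), 34.8 (25.3 to 46.8) and 58.9 (53.7 to 64.4) in blood endothelial-like cells. Hoxd8 is a gene of the mid-trunk that is also known from lymphatic vessel development. It was at 20.4 (17.5 to 23.7) and 12.2 (11.3 to 13.3) in stromal-like, 26.0 and 11.6 in mural-like, 3.85, 4.60 and 0 in muscle progenitor-like and 10.2 and 5.59 in mature muscle-like cells. In epithelial-like cells Hoxd8 was at 5.71, in glial-like cells at 10.6 (4 UMIs), in myeloid-like cells at 0 to 5.12 and in lymphoid-like cells at 0.870 and 1.25. Every endothelial-like level of Hoxd8 lay above every level of another class, the closest pair being 34.8 in blood endothelial-like and 29.6 in tenocyte-like cells of Prox1 eGFP day 21. That pair was not apart beyond counting error, as 29.6 lies inside the blood endothelial-like interval of 25.3 to 46.8.

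Hoxd9, a gene of trunk and proximal limb, was at 84.3 (80.5 to 88.2) and 72.5 (68.7 to 76.5) in lymphatic endothelial-like cells and 55.5 (38.7 to 77.2), 37.2 (27.3 to 49.5) and 25.8 (22.4 to 29.5) in blood endothelial-like cells. It was at 9.37 (7.41 to 11.7) and 4.20 (3.64 to 4.83) in stromal-like, 23.6 and 4.34 in mural-like, 1.75, 2.82 and 0 in muscle progenitor-like and 5.95 and 1.12 in mature muscle-like cells. Hoxd9 was at 0.439 in epithelial-like, 5.29 in glial-like, 0 to 5.12 in myeloid-like and 1.09 and 0 in lymphoid-like cells. The order of the levels was lymphatic endothelial, blood endothelial, then stromal.

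Hoxd10, which acts in hindlimb and lumbar motor neuron patterning, was higher in lymphatic than in blood endothelial-like cells. It was at 64.5 (61.2 to 67.9) and 57.7 (54.3 to 61.3) in lymphatic against 11.1 (4.47 to 22.9), 10.3 (5.48 to 17.6) and 4.38 (3.05 to 6.08) in blood endothelial-like cells. Hoxd10 was at 3.72 (2.53 to 5.29) and 1.66 (1.32 to 2.08) in stromal-like, 1.18 and 0 in mural-like, 0.287, 0.249 and 0 in muscle progenitor-like and 2.80 and 2.24 in mature muscle-like cells. It was at 0 in epithelial-like, glial-like and lymphoid-like cells and 0 to 2.93 in myeloid-like cells. The lymphatic and blood levels did not overlap.

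Hoxb7, a trunk gene, was nearly restricted to endothelial-like cells. It was at 55.2 (52.1 to 58.4) and 51.6 (48.3 to 54.9) in lymphatic and 77.8 (57.5 to 103), 68.1 (54.5 to 84.1) and 51.1 (46.3 to 56.3) in blood endothelial-like cells. Hoxb7 was at 0.961 (8 UMIs) and 0.149 (7 UMIs) in stromal-like, 1.18 and 1.74 in mural-like, 0.0318 (1 UMI), 0.166 (4 UMIs) and 0 in muscle progenitor-like and 2.80 and 1.12 in mature muscle-like cells. It was at 5.27 in epithelial-like, 15.9 (6 UMIs) in glial-like, 0 to 4.39 in myeloid-like and 0 in lymphoid-like cells.

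Hoxb4, a hindbrain and neck-level gene known from blood stem cells, was at 21.5 (19.6 to 23.5) and 15.8 (14.1 to 17.7) in lymphatic and 44.4 (29.5 to 64.2), 45.1 (34.2 to 58.5) and 29.3 (25.6 to 33.2) in blood endothelial-like cells. In stromal-like cells Hoxb4 was at 0 and 0.320, in mural-like cells at 0 and 1.74, in muscle progenitor-like cells at 0.191, 0.166 and 0, and in mature muscle-like cells at 0.700 and 1.12. It was at 7.47 in epithelial-like and 10.6 (4 UMIs) in glial-like cells. Hoxb4 was at 4.32 (4 UMIs), 13.7 (8 UMIs), 2.93 and 6.42 (144 UMIs) in myeloid-like cells of the 4 libraries and 5.87 (27 UMIs) and 2.50 in lymphoid-like cells. In Vegfc CRE the myeloid-like level of Hoxb4 was thus above the stromal-like level, which was not so for Hoxc10, Hoxa10 or Hoxd8.

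**Figure D3:**
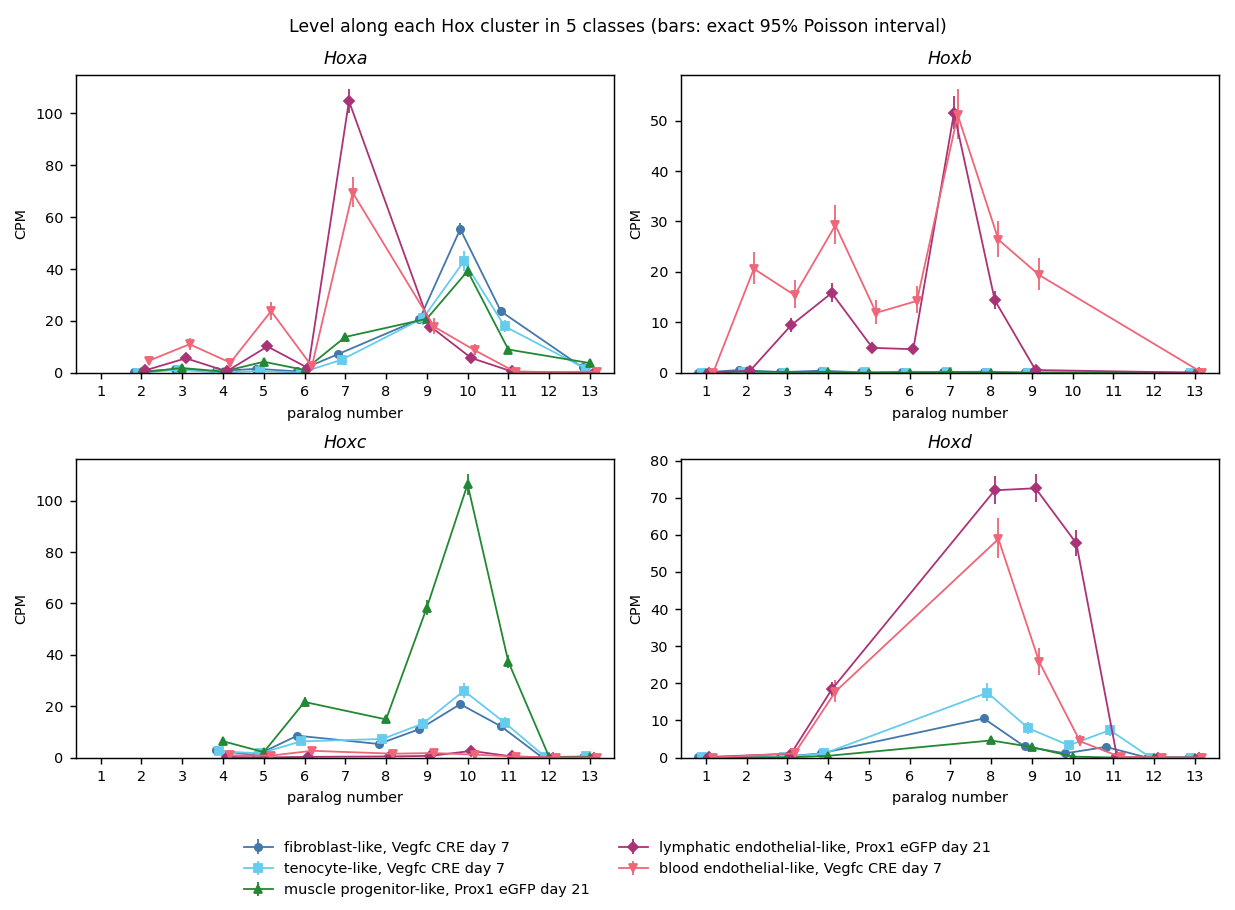
CPM of the Hox genes reported here against paralog number, 1 panel per Hox cluster, in fibroblast-like, tenocyte-like and blood endothelial-like cells of Vegfc CRE day 7 and muscle progenitor-like and lymphatic endothelial-like cells of Prox1 eGFP day 21, with exact 95% Poisson intervals as bars. Hoxc10 peaks at 106 in muscle progenitor-like cells, Hoxa7 at 105 in lymphatic endothelial-like cells, and Hoxd8, Hoxd9 and Hoxd10 form a block at 72.0, 72.5 and 57.7 in lymphatic endothelial-like cells.

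The other 27 members ranked below these by the same measure. With a threshold of 10 UMIs, 26 and 22 of the 39 members were detected in lymphatic endothelial-like cells at days 7 and 21, 14, 18 and 24 in blood endothelial-like cells, 21 and 19 in muscle progenitor-like cells of the Prox1 eGFP libraries, 18 and 25 in stromal-like cells and 9 and 16 in mural-like cells. The same threshold was met by 47.9% and 46.5% of all genes in the lymphatic, 27.0%, 32.2% and 44.2% in the blood endothelial-like, 49.1% and 46.5% in the muscle progenitor-like, 45.3% and 54.4% in the stromal-like and 28.0% and 40.6% in the mural-like cells. Of the remaining Hoxb genes, Hoxb3, Hoxb5, Hoxb6 and Hoxb8 were between 4.67 and 34.1 CPM in the endothelial-like classes and at most 1.45 in stromal-like, mural-like and muscle progenitor-like cells. Hoxb9 lay at 14.3, 35.6 and 19.4 in blood but 0.451 and 0.536 in lymphatic endothelial-like cells, against 0 and 0.0427 in stromal-like cells. Hoxa5 lay at 39.7, 26.1 and 23.8 in blood and 11.7 and 10.1 in lymphatic endothelial-like cells, 6.46 and 4.23 in muscle progenitor-like cells of the Prox1 eGFP libraries and 1.08 and 1.32 in stromal-like cells. Hoxa11, which patterns the forearm and shank, was at 23.9 and 22.2 in stromal-like, 10.1 and 8.95 in muscle progenitor-like cells of the Prox1 eGFP libraries and 0 to 2.38 in endothelial-like cells. Hoxa13, a hand and foot gene, was at 4.21 and 1.90 in stromal-like and 5.13 and 3.73 in those muscle progenitor-like cells. Hoxc8 was at 25.7 and 14.8 in the same muscle cells, 5.77 and 5.76 in stromal-like and 8.26 and 20.6 in mural-like cells. Hoxd4, which shares exons with Hoxd3, was at 20.7 and 18.3 in lymphatic and 11.9 to 19.0 in blood endothelial-like cells and at 1.68 and 1.11 in stromal-like cells. Hoxb1, Hoxd1 and Hoxc12 stayed at or under 0.579 in all 5 of these classes.

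The number of members seen in a single cell was highest in endothelial-like cells. After thinning to 5000 UMIs, the mean number of members with a UMI per cell was 2.18 and 1.97 in lymphatic endothelial-like cells at days 7 and 21, 2.81, 2.55 and 1.94 in blood endothelial-like cells, 1.65 and 1.40 in muscle progenitor-like cells, 1.14 and 0.925 in stromal-like cells and 0.0646 in myeloid-like cells of Vegfc CRE. Cells holding both a Hoxb and a Hoxd UMI made up 30.9% and 25.6% of the lymphatic endothelial-like cells at that depth, and 29.0%, 23.5% and 20.8% of the blood endothelial-like cells. In stromal-like cells the Hoxb and Hoxd pair was seen in 0.263% and 0.110%. The endothelial combination of clusters was therefore present within cells and not only in the class sum.

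Endothelial-like and stromal-like cells were compared within each library that held both. A gene is called here where the classes differed at least 2-fold with at least 10 UMIs over both. At Prox1 eGFP day 21, 18 of 31 members measured were called higher in endothelial-like cells, where 20.9% of all genes were, and 11 lower, where 17.4% were. In Vegfc CRE, 20 of 32 were higher (18.8% of all genes) and 10 lower (18.6%). The median log2 ratio of the members was 1.77 and 2.66, against 0.30 and 0.14 over all genes. By member, Hoxa7 was 11.8-fold (9.38 to 15.1) higher at Prox1 eGFP day 21 and 10.5-fold (9.12 to 12.1) in Vegfc CRE. Hoxb7 was 54.7-fold (27.7 to 127) and 342-fold (165 to 857) higher. Both fold ranges for Hoxb7 rest on 8 and 7 stromal UMIs. Hoxd8 was 3.41-fold (2.91 to 4.02) and 4.78-fold higher, Hoxd9 7.50-fold (5.97 to 9.55) and 6.16-fold, and Hoxd10 14.7-fold (10.3 to 21.7) and 3.05-fold (2.04 to 4.51). The endothelial-like class was mostly lymphatic at Prox1 eGFP day 21 and nearly all blood endothelial in Vegfc CRE, so the sizes are not the same comparison. Hoxb4, with 0 stromal UMIs at Prox1 eGFP day 21, was at least 49.1-fold higher there, and 92.4-fold higher in Vegfc CRE. Hoxb5 and Hoxb6 also had 0 stromal UMIs at Prox1 eGFP day 21 and were at least 16.2-fold and at least 15.5-fold higher there, and Hoxd4 was 10.7-fold (6.27 to 19.7) and Hoxa5 10.3-fold (5.34 to 22.9) higher. Hoxb9 was 450-fold (122 to 3746) higher in Vegfc CRE, from 155 against 2 UMIs.

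The members lower in endothelial-like cells were the limb-level Hoxa and most Hoxc genes. Hoxa10 was 8.42-fold (6.93 to 10.3) lower at Prox1 eGFP day 21 and 6.13-fold (4.82 to 7.90) lower in Vegfc CRE. Hoxa11 was 39.7-fold (22.2 to 78.0) and 89.7-fold (24.8 to 742) lower, the second from 2 against 1041 UMIs. Hoxc10 was 10.7-fold (8.05 to 14.3) and 19.8-fold (10.4 to 43.4) lower, Hoxc9 19.8-fold and 6.70-fold, and Hoxc6 19.1-fold and 3.06-fold. Hoxc11 was 20.8-fold (10.8 to 44.9) and Hoxc8 11.5-fold (5.73 to 25.4) lower at Prox1 eGFP day 21, and Hoxa13, with 0 endothelial UMIs there, at least 27.9-fold. Hoxd11 was on the other side from its neighbours, with 2 against 29 UMIs at Prox1 eGFP day 21, which is 34.7-fold (8.77 to 299.9) lower, and 1 against 187 in Vegfc CRE, which is 32.2-fold (5.71 to 1279.8) lower. Within the Hoxd cluster the endothelial-like cells were thus higher for Hoxd4, Hoxd8, Hoxd9 and Hoxd10 and lower for Hoxd11 in the same library.

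Muscle progenitor-like cells were set against stromal-like cells within each library that held both. At Prox1 eGFP day 21, 7 of 22 members were called higher in muscle progenitor-like cells (15.6% of all genes were). The 7 called lower were near the share of all genes (26.0%). Those higher were Hoxc and Hoxa genes, and most of those lower were Hoxd genes. Hoxc11 was 3.56-fold (2.86 to 4.49) higher, Hoxc10 3.25-fold (2.87 to 3.70), Hoxc9 3.09-fold (2.62 to 3.67), Hoxc6 2.81-fold (2.17 to 3.71) and Hoxc8 2.57-fold (1.90 to 3.55). The intervals of these 5 Hoxc genes overlapped each other, while Hoxa10 did not reach 2-fold. Hoxa5, a gene of the neck and upper thorax level, was 3.91-fold (1.98 to 8.79) higher. Lower were Hoxa11 by 2.67-fold (2.19 to 3.25), Hoxd8 by 4.44-fold (3.47 to 5.69), Hoxd9 by 3.33-fold (2.37 to 4.67), Hoxd4 by 3.69-fold, Hoxd10 by 15-fold (6.16 to 43.9) and Hoxb7 by 5.80-fold (1.55 to 26.3, from 4 against 8 UMIs). Hoxd11, with 0 muscle UMIs, was at least 28.0-fold lower. The 12 endothelial markers summed to 219 CPM in these stromal-like and 41.2 in these muscle progenitor-like cells, with Cdh5 at 11.1 and 1.12. The part of endothelial RNA in the Hoxd and Hoxb7 folds was not tested. In Vegfc CRE, with 30 muscle progenitor-like cells, 6 of 11 members were higher (23.8% of all genes) and 2 lower (18.9%), and Hoxc10 was 3.70-fold (2.02 to 6.24) and Hoxc9 3.02-fold (1.10 to 6.61) higher.

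Lymphatic and blood endothelial-like cells, both lining vessels, were compared within the 2 Prox1 eGFP libraries after injury. At day 7, 1 of 23 members was called higher in lymphatic cells (10.2% of all genes) and 12 lower (14.8%), and at day 21, 2 of 26 were higher (11.4%) and 17 lower (13.5%). Hoxd10 was the member called higher in both, by 5.81-fold (2.81 to 14.5) and 5.61-fold (3.26 to 10.6). Hoxd8 was 2.07-fold (1.53 to 2.86) higher at day 21, where Hoxd9 had a ratio of 1.95. Hoxb9 was 31.6-fold (11.4 to 86.7) lower in lymphatic cells at day 7 and 66.4-fold (33.0 to 148) lower at day 21, from 10 lymphatic UMIs in each library. Hoxa10 was 3.95-fold lower at day 7 and 3.62-fold (2.26 to 5.60) at day 21, and Hoxa9 2.85-fold and 2.89-fold (2.18 to 3.78). Lower at both times were also Hoxa3 (4.98-fold and 2.13-fold), Hoxa5 (3.39-fold and 2.58-fold), Hoxb4 (2.06-fold and 2.85-fold) and Hoxb5 (3.44-fold and 3.85-fold). Hoxb2 was 27.7-fold (11 to 75.4) lower at day 21, from 8 against 15 UMIs. Lower at day 21 were also Hoxb6 (4.07-fold), Hoxb8 (2.37-fold), Hoxc9 (8.61-fold) and Hoxc10 (4.0-fold, 1.99 to 7.50), and at day 7 Hoxb3 (2.14-fold), with Hoxa2 (6.21-fold, 1.17 to 21.5) and Hoxa4 (7.03-fold, 1.31 to 24.9) from 3 blood endothelial UMIs each. The blood endothelial-like class had 33 cells at day 7, and 29 of them lay in cluster 10. Prox1 stood at 781 and 157 in it and the 9 lymphatic markers summed to 1016 and 1494, against 14546 and 22990 in lymphatic cells. At day 21 the stromal markers summed to 2312 in blood and 277 in lymphatic cells, Col1a1 stood at 588 and 12.2, and the muscle progenitor markers summed to 363 and 155. The part of these in the ratios was not tested.

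Within stroma, tenocyte-like cells (102 at Prox1 eGFP day 21 and 477 in Vegfc CRE, marked by Tnmd and Scx) were set against fibroblast-like cells (306 and 1417). This comparison was added after the levels had been seen. At Prox1 eGFP day 21, 2 of 18 members were called higher in tenocyte-like cells (6.17% of all genes) and 2 lower (11.6%), and in Vegfc CRE 4 of 25 were higher (4.44%) and 5 lower (10.7%). Hoxd11, a gene of forearm and shank, was at 6.30 in tenocyte-like against 2.13 in fibroblast-like cells at Prox1 eGFP day 21, and at 7.40 against 2.87 in Vegfc CRE, which is 2.95-fold (1.33 to 6.77) and 2.58-fold (1.91 to 3.48) higher. Hoxd10 was at 8.15 against 1.60 and at 3.27 against 1.13, or 5.09-fold (2.25 to 12.6) and 2.88-fold (1.80 to 4.61) higher. Tenocyte-like cells were thus higher for the same pair of Hoxd genes in both libraries. Hoxd9 was at 11.9 against 8.18 and at 7.91 against 2.98, which reached 2.66-fold (1.99 to 3.55) only in Vegfc CRE. Hoxd genes gave 23.9% (20.7 to 27.3) and 18.8% (17.2 to 20.4) of the Hox UMIs of tenocyte-like cells, and 12.2% (10.5 to 14.1) and 9.58% (8.89 to 10.3) of those of fibroblast-like cells. At Prox1 eGFP day 21, Cdh5 was at 25.9 in tenocyte-like and 3.91 in fibroblast-like cells, and Prox1 at 46.3 and 29.9. In Vegfc CRE, Cdh5 was at 3.61 and 4.57 and Prox1 at 0.344 and 0.880. The part of endothelial RNA in the Hoxd values was not tested. Fibroblast-like cells of Vegfc CRE lay in clusters 11 and 12, between which Hoxd11 differed, as given below. Tenocyte-like cells were not set against either cluster alone. Hoxc6 was 2.31-fold (1.19 to 4.91) lower in tenocyte-like cells at Prox1 eGFP day 21, with 6.28 against 8.51 in Vegfc CRE. It did not reach 2-fold at resolutions 0.5 and 2.0 or under a stricter cell filter, where 0 members were called lower at Prox1 eGFP day 21. In Vegfc CRE, Hoxa5 was 2.23-fold (1.05 to 5.42) and Hoxa4 at least 2.09-fold lower in tenocyte-like cells, and Hoxc13 4.55-fold (1.08 to 21.9) higher from 6 against 4 UMIs. Hoxa10 was at 47.0 against 60.1 and at 43.0 against 55.4.

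Mural-like cells were set against stromal-like cells in the same way, also after the levels had been seen. Of 19 members, 6 were higher (15.2% of all genes) and 2 lower (12.6%) at Prox1 eGFP day 21, and in Vegfc CRE 16 of 28 were higher (15.9%) and 2 lower (12.7%). Hoxa7 was 4.11-fold (2.61 to 6.34) and 2.67-fold (1.99 to 3.52) higher in mural-like cells, and Hoxc6 was 2.45-fold (1.32 to 4.30) and 3.56-fold (2.82 to 4.46). In Vegfc CRE, Hoxc8 was 3.57-fold (2.71 to 4.65), Hoxc4 5.13-fold, Hoxc5 5.59-fold and Hoxa5 5.25-fold (3.13 to 8.54) higher, and Hoxa11 2.48-fold (1.73 to 3.66) lower. Hoxc6 and Hoxc8 were thus called higher than in stroma both in mural-like cells of Vegfc CRE and in muscle progenitor-like cells of Prox1 eGFP day 21. In Vegfc CRE the 12 endothelial markers summed to 465 CPM in mural-like and 141 in stromal-like cells, with Cdh5 at 17.9 and 4.33. At Prox1 eGFP day 21 they summed to 255 and 219, with Cdh5 at 4.72 and 11.1. The part of endothelial RNA in the mural folds was not tested.

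Between Prox1 eGFP day 7 and day 21, muscle progenitor-like cells showed no member apart by 2-fold with an interval that leaves out 1. The day 7 library had another gene list (27998 against 32285 genes). List and library therefore differ together in every comparison of Prox1 eGFP day 7 with another library, and the part of the list was not tested. Of 24 members measured, 0 were called higher at day 21, where 3.56% of all genes were, and 1 lower, where 11.7% were. That 1 was Hoxa2, at 4 against 11 UMIs and 2.11-fold (0.626 to 9.10) lower. The Hox sum had a ratio of 0.850 (0.827 to 0.873), and the median log2 ratio was -0.21 over the members and -0.26 over all genes. Hoxc10 had a ratio of 0.928, Hoxc6 0.694, Hoxc8 0.577 (0.508 to 0.654), Hoxa5 0.654 and Hoxd9 1.61 (1.11 to 2.34). Cluster 18 held most of the class at day 7 and cluster 20 at day 21, and within cluster 18 Hoxc10 was at 123 and 111 and within cluster 20 at 115 and 110 at the 2 days. Cluster 21, led by the differentiation genes Myog and Mymk, held Hoxc10 at 61.8 and 61.9. In mature muscle-like cells, 2 of 14 members were higher at day 21 (9.17% of all genes) and 3 lower (12.1%), and the interval left out 1 for Hoxa9 alone, at 2.26-fold (1.28 to 3.92) higher.

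In lymphatic endothelial-like cells, 0 of 28 members were called higher at day 21 than at day 7 (3.82% of all genes) and 5 lower (7.78%). Hoxa6 was 2.24-fold (1.49 to 3.46) lower at day 21, at 1.77 against 3.97 CPM, and Hoxb6 2.14-fold (1.66 to 2.77) lower, at 4.67 against 9.97. Both are genes of the upper thorax level. Hoxc11 was 2.84-fold (1.25 to 7.23) lower and Hoxb2 2.42-fold (1.04 to 6.25) lower, each from 8 UMIs at day 21. Hoxa7, with the largest count, had a ratio of 1.32 (1.24 to 1.41). The sum had a ratio of 0.955 (0.928 to 0.982), and the medians were -0.19 over the members and -0.17 over all genes. The lymphatic pattern of Hoxd8, Hoxd9, Hoxd10, Hoxa7 and Hoxb7 was therefore within 2-fold between the days.

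In blood endothelial-like cells, 3 of 19 members were higher at Prox1 eGFP day 21 than at day 7 (7.24% of all genes) and 2 lower (12.7%). Hoxb9 was 2.50-fold (1.20 to 5.81) higher, from 14.3 to 35.6. Of the day 7 cells 29 of 33 lay in cluster 10, while the day 21 cells were split into 57 in cluster 9 and 64 in cluster 10, where Hoxb9 was at 13.2 and 52. The stromal markers went from 338 to 2312 and Col1a1 from 3.17 to 588 between these days, and their part was not tested. Hoxb2 had a ratio of 7.49 (1.15 to 315), from 1 UMI at day 7. At the same day 7, Vegfc CRE against Prox1 eGFP gave 1 of 23 members higher (7.51% of all genes) and 5 lower (15.6%). Hoxb2 again was the higher member, with a ratio of 13 (2.30 to 516), from 165 against that 1 UMI. Hoxa9 was 2.50-fold (1.61 to 3.77) lower in Vegfc CRE, Hoxd9 2.16-fold (1.46 to 3.10), Hoxa3 2.16-fold (1.16 to 3.77) and Hoxa6 3.81-fold (1.25 to 9.83). The Prox1 level of 781 in the day 7 class moved with these, and its part was not tested. In muscle progenitor-like cells, of which Vegfc CRE had 30, 2 of 12 members were higher than at Prox1 eGFP day 7 (13.6% of all genes) and 2 lower (16.7%). The interval left out 1 for Hoxc11 alone, 8.25-fold (1.48 to 326) lower from 1 UMI.

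**Figure D4:**
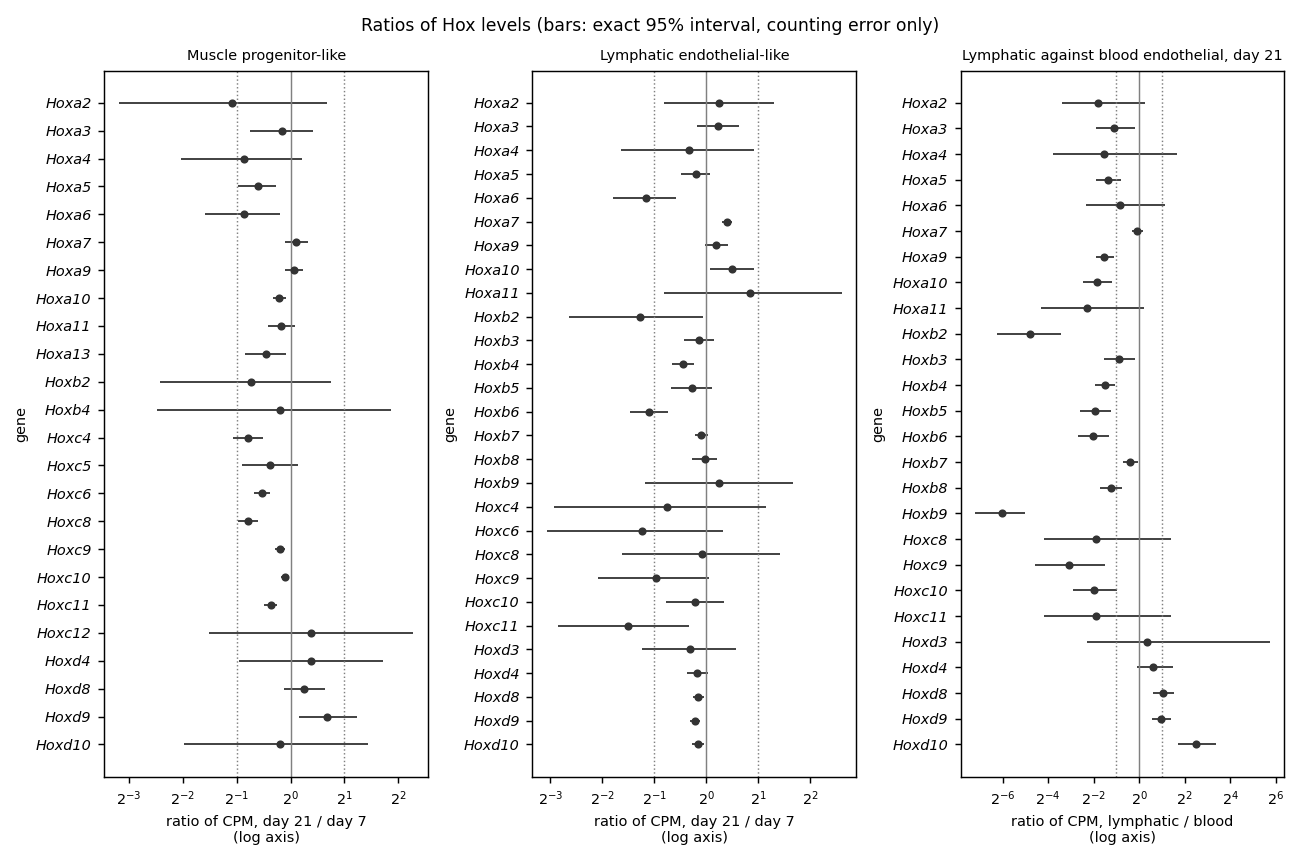
Ratio of each Hox gene with its exact 95% interval on a log axis, for muscle progenitor-like cells at Prox1 eGFP day 21 over day 7 (left), lymphatic endothelial-like cells at day 21 over day 7 (middle) and lymphatic over blood endothelial-like cells at day 21 (right), with dotted lines at 2-fold either way. In the left panel all members but Hoxa2 lie inside the dotted lines, and in the right panel Hoxd10 lies farthest to the right at 5.61 and Hoxb9 farthest to the left.

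Prox1 eGFP day 21 and Vegfc CRE day 7 differ in both line and day, so their values are set side by side for the classes that both hold. In stromal-like cells, 0 of 26 members were called higher in Vegfc CRE (8.93% of all genes) and 5 lower (8.85%). Hoxd9 stood at 9.37 and 4.20, Hoxd10 at 3.72 and 1.66 and Hoxa13 at 4.21 and 1.90, whereas Hoxa10 at 55.9 and 52.3 and Hoxa11 at 23.9 and 22.2 were nearly level. Prox1 stood at 35.2 and 0.747 and Cdh5 at 11.1 and 4.33 in these stromal-like cells. The 9 lymphatic markers summed to 765 and 290 in them, and the part of such RNA in the Hox values was not tested. Fibroblast-like cells made up 306 of 408 and 1417 of 1894 cells, from cluster 11 mostly at Prox1 eGFP day 21 (266 of 306) and from clusters 11 and 12 about equally in Vegfc CRE (692 and 725). In mural-like cells, 3 of 16 members were higher in Vegfc CRE (12.6% of all genes) and 6 lower (11.6%). Hoxc4 stood at 3.54 and 13.9 and Hoxc8 at 8.26 and 20.6, while Hoxd9 stood at 23.6 and 4.34, Hoxa10 at 55.5 and 26.9 and Hoxd8 at 26.0 and 11.6. With each cell classed by its own markers, 2 and not 6 members were lower there, and the log2 ratio of Hoxd8 turned from -1.16 to 0.36. The 12 stromal markers summed to 17042 and 9532 CPM in these mural-like cells and Prox1 stood at 31.9 and 0.289, and their part was not tested. In blood endothelial-like cells, 1 of 26 members was higher in Vegfc CRE (8.94% of all genes) and 5 lower (9.83%), with Hoxa9 at 51.5 and 17.8 and Hoxc10 at 10.3 and 1.13. Muscle progenitor-like cells gave 3 of 11 higher (19.5%) and 2 lower (11.6%), fibroblast-like cells 2 of 23 higher (10.1%) and 3 lower (8.56%), and tenocyte-like cells 1 of 18 higher (8.62%) and 2 lower (8.01%). Myeloid-like cells, with their few Hox UMIs, gave 1 of 10 higher (7.55%) and 7 lower (14.1%) here, 0 of 6 higher (7.48%) and 6 lower (15.7%) against Prox1 eGFP day 7, and between the Prox1 eGFP days 0 of 3 higher (9.87%) and 2 lower (9.93%). The myeloid-like class of the Prox1 eGFP libraries also held all 12 muscle progenitor markers, summing to 861 and 741 against 276 in Vegfc CRE, and their part in these values was not tested.

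Clusters inside a class also differed, in comparisons added after the levels were seen. Among blood endothelial-like cells of Vegfc CRE, cluster 9 (177 cells, led by the capillary genes Aqp7 and Timp4) held the Hoxc genes at 38.9 CPM (70 UMIs) and cluster 10 (500 cells, led by the venous genes Vwf, Selp and Ackr1) at 0.323 (2 UMIs). The ratio was 120 (32.1 to 1014). The Hoxc genes of Prox1 eGFP day 21 were at 39.5 (21 UMIs, 57 cells) and 9.57 (7 UMIs, 64 cells), a ratio of 4.13 (1.69 to 11.5). Hoxc6 was at 11.1 against 0.161 in Vegfc CRE, from 20 and 1 UMIs, and Hoxc10 at 20.7 against 2.73 at Prox1 eGFP day 21. Cluster 9 was thus the source of most Hoxc UMIs of this class in both libraries. The summed stromal marker list was higher in cluster 9 too, at 1495 against 403 in Vegfc CRE and 5112 against 278 at Prox1 eGFP day 21, while Pax7 was at 0 against 0.645 and 11.3 against 21.9. When the clusters were named over all libraries, 3 of 10 mural markers counted for cluster 9 and 1 of 10 for cluster 10. Mural-like cells held the Hoxc genes at 137 CPM in Vegfc CRE and 90.8 at Prox1 eGFP day 21. The part of stromal or mural RNA in the Hoxc counts was not tested. In all, 4 of 24 members were called higher in cluster 9 in Vegfc CRE (9.78% of all genes) and 3 lower (7.74%), and 2 of 18 higher (10.6%) and 5 lower (10.6%) at Prox1 eGFP day 21. Lower in cluster 9 in both libraries were Hoxb9 (9.99 against 22.1, and 13.2 against 52), Hoxd9 (14.4 against 29.0, and 18.8 against 50.6) and Hoxd10 (1.11 against 5.32, and 0 against 17.8).

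Among lymphatic endothelial-like cells, cluster 14 (led by Ccl21a, Lyve1 and Reln; the first pair mark lymphatic capillaries) was set against cluster 15 (led by Clca3a1 and holding Foxc2, a lymphatic valve gene). At Prox1 eGFP day 7, 1 of 24 members was higher in cluster 14 (5.69% of all genes) and 3 lower (6.48%), and at day 21, 0 of 20 were higher (5.21%) and 1 lower (6.26%). Hoxa9 was at 8.59 against 18.4 at day 7, or 2.14-fold (1.44 to 3.30) lower, and Hoxa5 at 7.36 against 14.9. Hoxa10 was at 2.36 against 7.05 at day 21, or 2.99-fold (1.59 to 6.21) lower. The lymphatic members Hoxd8 and Hoxd9 had ratios of 1.51 and 1.42 at day 21. Among fibroblast-like cells of Vegfc CRE, 3 of 24 members were higher in cluster 11 (led by Clec3b and Pi16) than in cluster 12 (led by Cxcl5; 10.9% of all genes) and 2 lower (11.3%). Hoxa10 was at 79.1 against 41.7 there, a ratio of 1.90 (1.74 to 2.08), and Hoxd11 was 7.75-fold (3.62 to 19.8) lower, from 7 against 94 UMIs. At Prox1 eGFP day 21, where cluster 12 had 40 cells, 2 of 15 members were higher (10.5%) and 2 lower (8.48%). Hoxa10 was there at 63.9 against 39.2, while Hoxd11 had 11 against 1 UMIs and a ratio of 2.01 (0.292 to 86.4), so its direction was not shared.

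Noncoding genes of the clusters were read beside their neighbours, with the caution that the strand setting of the counting is not given in the sources used here. Hotair, a long noncoding RNA between Hoxc11 and Hoxc12, reached 9.69 and 5.63 CPM in muscle progenitor-like cells of Prox1 eGFP days 7 and 21, 1.67 and 1.27 in stromal-like, 0.360 and 0.107 in lymphatic and 0 in all 3 sets of blood endothelial-like cells. Hotairm1, a noncoding gene of the Hoxa cluster, was at 58.6, 48.8 and 33.7 in blood and 6.40 and 9.07 in lymphatic endothelial-like cells, 8.85 and 7.20 in stromal-like and 1.21 and 1.73 in muscle progenitor-like cells. Hoxd3os1 was at 29.1 and 37.2 in lymphatic and 17.4, 33.1 and 25.9 in blood endothelial-like cells and 1.88 and 1.81 in muscle progenitor-like cells. Evx1 and Evx2, which flank the Hoxa and Hoxd clusters, were at 0.

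The partner and limb genes were counted from lists. Of the HOX cofactors, 9 were measured in endothelial-like against stromal-like cells at Prox1 eGFP day 21, with 1 higher (Meis2) and 4 lower (Pbx4, Meis1, Meis3 and Pknox2), where 20.9% and 17.4% of all genes were. In Vegfc CRE 0 of 9 were higher and 5 lower, against 18.8% and 18.6% of all genes. Meis2 reached 107 and 105 CPM in lymphatic endothelial-like cells at days 7 and 21, at 7.13 in blood endothelial-like cells at day 21 and 2.13 in Vegfc CRE, and at 21.7 and 23.1 in stromal-like cells. Meis2 thus followed the lymphatic class, and it was the only cofactor called higher in lymphatic than in blood endothelial-like cells at day 21 (1 of 6 higher, 1 lower, Meis1, against 11.4% and 13.5% of all genes). Of the limb regulators, 0 of 16 were higher and 16 lower in endothelial-like than in stromal-like cells at Prox1 eGFP day 21, and 2 of 17 higher and 12 lower in Vegfc CRE, to be read against the same shares of all genes. Pitx1, the hindlimb identity factor, was at 16.8 and 17.6 in stromal-like cells and 0 in lymphatic and blood endothelial-like cells. In muscle progenitor-like against stromal-like cells at Prox1 eGFP day 21, 3 of 17 limb regulators were higher (Tbx4, En1 and Tbx3) and 13 lower, where 15.6% and 26.0% of all genes were. Of the regulators of Hox clusters, Polycomb and trithorax genes among them, 7 of 13 were higher and 1 lower in that comparison, against the same shares. In endothelial-like against stromal-like cells at Prox1 eGFP day 21, 3 of 13 were higher (Ezh1, Suz12 and Bmi1) and 0 lower. The 3 higher were near the share of all genes (20.9%), and 17.4% of all genes were lower. In Vegfc CRE, 5 of 13 were higher (18.8% of all genes) and 0 lower (18.6%). From day 7 to day 21, 0 of 13 of these regulators were called higher or lower in muscle progenitor-like cells (3.56% and 11.7% of all genes), and 1, Cbx2, was lower in lymphatic endothelial-like cells (7.78% of all genes were lower).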

How the data were processed

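The deposited values are raw UMI counts for each gene and cell barcode. The submitters' processing notes name Cell Ranger 5.0.1 and the genome build mm10 for them. From those counts, cells with at least 500 genes, 1000 UMIs and at most 15% mitochondrial UMIs were kept, and cells called as doublets (0, 1, 85 and 92 in library order) were left out. The caller found almost none at Prox1 eGFP days 0 and 7, so removing the highest scores was an added alternative. The gene lists held 32285 genes in 3 libraries and 27998 at Prox1 eGFP day 7, and the 27040 shared genes were used. Clustering (scanpy 1.11.5, Leiden with igraph 0.11.9) used 2000 variable genes, 30 components, 15 neighbours and a resolution of 1.0, without Hox genes, and clusters were named "-like" from at least 3 markers. UMIs were summed per class and library, with exact 95% intervals (scipy 1.17.1), namely Poisson for a level, conditional binomial for a ratio, Clopper-Pearson for a share. Classes needed 30 cells. Where a sum was 0, the fold was taken against a floor of 3 UMIs in that sum. The scripts were tested on simulated data. Named were the 12 members with the highest level in any stromal, endothelial or muscle class, and members at least 2-fold apart whose interval leaves out 1. Members and lists were chosen with earlier results of these data known. Hoxa2 and Hoxa3, and Hoxd3 and Hoxd4, overlap genes listed only at Prox1 eGFP day 7, and Hoxc10 shares exons with Hoxc5, so their counts are uncertain. A member withheld here is counted in sums and counts but is not reported by name.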

Additional observations from a re-analysis of the deposited data

Results flagged for a closer look

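Hoxa11os, the antisense gene of Hoxa11, was not in the gene list of the Prox1 eGFP day 7 library and so lies outside the comparisons of the 39 members. It was at 31.8 CPM (266 UMIs) in stromal-like cells of Prox1 eGFP day 21 and 33.6 (1580 UMIs) in Vegfc CRE, at 18.8 (16 UMIs) and 10.9 (38 UMIs) in mural-like cells and at 8.83 (215 UMIs) in muscle progenitor-like cells of Prox1 eGFP day 21. The uninjured day 0 library held 3 UMIs, or 0.445 CPM, and was mostly immune-like. Hoxaas2, another noncoding gene outside the comparisons, was at 2.71 (22 UMIs) in endothelial-like cells of Vegfc CRE, against 1 UMI, or 0.148 CPM, in the day 0 library. Hoxb2 moved in opposite directions between Prox1 eGFP day 7 and day 21, with a log2 ratio of -1.27 in lymphatic and 2.90 in blood endothelial-like cells. The difference between the classes was not tested, and the blood endothelial-like class held 1 Hoxb2 UMI in 33 cells at day 7.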

How the results depend on the processing

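No paired analysis was possible because each group has 1 library, so there was also no replicate to leave out. Depth limits what the members show: many hold fewer than 10 UMIs in a class, and intervals cover counting error only. Of 1180 log2 ratios recomputed under the alternatives, 1149 stayed within their error, 30 moved and 1 reversed. Of 276 counts of members at least 2-fold apart, 232 stayed within 1.5 times and 44 did not. Of 191 summed levels 13 moved, of 191 numbers of members detected 14 moved, and of 80 shares of cells 46 moved, all of them values at another thinning depth. Each of those 44 counts follows, with the count under the alternative before the reported count.

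Requiring 1 UMI in each sum and 30 over both gave, for members higher, 11 (18) in endothelial against stromal cells and 3 (6) in mural against stromal cells of Prox1 eGFP day 21, 8 (16) in mural against stromal cells of Vegfc CRE, 1 (2) in tenocytes against fibroblasts of Prox1 eGFP day 21, and 1 (3) in blood endothelial and 1 (2) in mature muscle cells between the Prox1 eGFP days. For members lower it gave 10 (17) in lymphatic against blood endothelial cells and 4 (7) in muscle progenitor against stromal cells of Prox1 eGFP day 21, 1 (2) and 2 (5) in tenocytes against fibroblasts of Prox1 eGFP day 21 and Vegfc CRE, 3 (5) in stromal and 3 (5) in blood endothelial cells of Vegfc CRE against Prox1 eGFP day 21, and 0 (1) in muscle progenitor, 1 (2) in blood endothelial and 1 (3) in mature muscle cells between the Prox1 eGFP days. This alternative leaves fewer genes.

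Centring on the median of all genes gave 1 (2) higher in lymphatic against blood endothelial cells of Prox1 eGFP day 21, 1 (0) higher in lymphatic, 1 (2) lower in blood endothelial and 0 (1) lower in muscle progenitor cells between the days, 3 (5) lower in blood endothelial cells of Vegfc CRE against Prox1 eGFP day 7 and 6 (2) lower in mural against stromal cells of Vegfc CRE. Classing each cell by its own markers gave, for members higher, 0 (1) in blood endothelial and 1 (0) in stromal cells of Vegfc CRE against Prox1 eGFP day 21, 3 (1) in blood endothelial cells of Vegfc CRE against Prox1 eGFP day 7 and 1 (2) in lymphatic against blood endothelial cells of Prox1 eGFP day 21. For members lower it gave 1 (2) in blood endothelial and 2 (1) in muscle progenitor cells between the days, 0 (2) in mural against stromal cells of Prox1 eGFP day 21, and 2 (6) in mural and 8 (5) in stromal cells of Vegfc CRE against Prox1 eGFP day 21. The reversed ratio was Hoxd8 in mural cells of Vegfc CRE against Prox1 eGFP day 21, with a log2 ratio of 0.36 by each cell's own markers against -1.16 as reported.

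With doublet calls kept in, 1 (0) was higher and 3 (5) lower in lymphatic and 1 (2) lower in blood endothelial cells between the days, and 1 (0) higher in stromal cells of Vegfc CRE against Prox1 eGFP day 21. Removing the highest doublet scores, chosen after seeing the data, gave 3 (1) lower in muscle progenitor, 1 (2) in blood endothelial and 1 (3) in mature muscle cells between the days, 2 (1) higher in blood endothelial cells of Vegfc CRE against Prox1 eGFP day 21 and 2 (5) lower in tenocytes against fibroblasts of Vegfc CRE. In tenocytes against fibroblasts, 0 (2) were lower at Prox1 eGFP day 21 at resolutions 0.5 and 2.0 and under a stricter cell filter, and 2 (4) were higher in Vegfc CRE at resolution 0.5. The stricter filter gave 4 (2) lower in mural against stromal cells of Vegfc CRE. The cause of these shifts was not tested.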

Other observations

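Epithelial-like cells of Vegfc CRE (109 cells, led by keratins) had a Hox sum of 269 CPM (248 to 291), with 60.8% from Hoxa genes. They held Hoxc13, a gene of hair and nail keratinocytes, at 11.9 (7.81 to 17.3), from 27 UMIs, where stromal-like cells held it at 0.120 and 0.213.

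Among immune-like cells of the uninjured day 0 library, cluster 8, led by Ccl22 and Ccr7, genes of migrating dendritic cells, had a Hox sum of 86.5 (66 to 111) in 55 cells. Hoxa7 made up 27 of its UMIs, at 38.9 (25.7 to 56.6). The 44 cells of this cluster in Vegfc CRE held 4 Hox UMIs, or 14.6 CPM. The cluster's day 0 value is a single library.

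Cluster 2, which no marker list named, had a Hox sum of 386 (357 to 418) in 105 cells at Prox1 eGFP day 21, with Hoxc10 at 125. In Vegfc CRE, 76 cells of it had a sum of 21.3. Pax7 was at 179, Prox1 at 778 and the immune marker Ptprc at 0 in it at Prox1 eGFP day 21. All 87 unnamed cells of Vegfc CRE, which include those 76, held Pax7 at 0, Prox1 at 3.75 and Ptprc at 99.4. The cluster thus held unlike cells in these libraries, and its sums are not a comparison of the same cells.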
